A study of Homo sapiens with 18 samples.

Results

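Solute carriers are the membrane proteins that move amino acids, sugars, ions, metals, nucleosides and metabolites across the plasma membrane and the membranes of organelles. Their mRNAs were followed through input and 2 kinds of RNA immunoprecipitate. The members are the genes whose symbol begins with SLC and a number, taken from transcript clusters that the platform table names with a single symbol, with the brightest cluster for each gene and a mean log2 signal of at least 7 over the 18 arrays. Of 303 such symbols 208 passed and 95 did not, out of 14232 genes with a single symbol, of which 10229 had a mean of at least 7. The members were thus chosen by their measured mean signal, and a gene that is bright in a few groups passes it more easily than one that is dim throughout. Just under the threshold lay SLC13A5 and SLC9A5 at 6.95 and SLC60A1 at 6.98, and just over it SLC1A6 and SLC45A4 at 7.01 and SLC6A12 at 7.03.

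The cells were U251-MG, an established human astrocytoma line. RNA was precipitated with an antibody to TIAR (TIAL1) or to G3BP1, both RNA-binding proteins of stress granules, or taken as input. The 6 groups of 3 biological replicates each were the TIAR RIP, the G3BP1 RIP and input from cells given 500 µM arsenite for 30 min, and the same 3 kinds of RNA from control cells harvested after 30 min. The treatment label gives DMSO for the controls and the design text calls them untreated, and they are called DMSO here. All groups come from this 1 tumour line, and a precipitate made with a control antibody was not analysed here. Values are log2 signals, errors of changes are standard errors from the linear model, and a change was called where its p-value, adjusted over all 22011 transcript clusters, was under 0.05. RIP values show the composition of an RNA sample and not the amount recovered, so less of one mRNA and more of the others cannot be told apart.

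Most solute carriers are multi-pass proteins. Those of the plasma membrane and of the secretory path are made by ribosomes at the endoplasmic reticulum, whereas the SLC25 carriers of the mitochondrial inner membrane are made in the cytosol and imported. Arsenite is an oxidative stressor that halts translation initiation, and the stalled mRNAs gather with TIAR, G3BP1 and other proteins in stress granules. Known transcriptional targets of ATF4, the factor of the integrated stress response, and of NRF2, the factor of the oxidative response, include amino acid transporters such as SLC3A2, SLC7A5 and SLC7A11.

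By location 92 members are plasma membrane carriers, 31 are SLC25 carriers, 84 are carriers of other membranes or of unsettled place, and SLC25A3P1 is a pseudogene. Among the 31, SLC25A17 is known from peroxisomes and SLC25A46 from the outer mitochondrial membrane. The classes differed in signal, with a median of the mean signals of 8.33 for the plasma membrane, 9.38 for SLC25 and 9.17 for the others, and 40 of the 92 plasma membrane genes had a mean under 8 against 8 of the 31 SLC25 genes. The brightest plasma membrane genes were the glucose transporter SLC2A1 (13.22), the amino acid transporters SLC38A2 (12.31) and SLC38A1 (12.30), and SLC3A2 (12.18). The brightest SLC25 genes were SLC25A39 (11.90), which brings glutathione into mitochondria, and the oxoglutarate carrier SLC25A11 (11.70).

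In DMSO input the 13 glial and glioma markers ran from 4.78 for AQP4 to 12.95 for VIM, with a median of 8.45, which is the level of GFAP, and 5 over 9. The low ones were AQP4, S100B (5.20), SLC1A2 (6.01), CHI3L1 (6.50) and ALDH1L1 (7.19). The 5 neuron markers ran from 6.64 to 8.83, with SYT1 (8.83) and GAD1 (8.80) above GFAP. The 4 myeloid markers ran from 3.61 for PTPRC to 7.70 for CD14, and the 5 epithelial markers from 3.47 for EPCAM to 11.96 for KRT8. There were 2 arrays that stood apart from their groups, replicate 1 of arsenite input and replicate 3 of the DMSO G3BP1 RIP, each with a mean correlation of 0.980 with its group, and with upper quartiles of 9.17 and 9.45. Counts without both of them are given beside the counts from all 18 arrays. Unless a share of all genes from the same fit stands beside it, such a count shows only how the members' count moved.

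In input, which is total RNA, 30 min of arsenite left most solute carrier mRNAs without a called change. Of the 208 members 9 rose and 26 fell, where 2.35% of the genes with a mean of at least 7 rose and 18.4% fell (2.52% and 11.2% of all transcript clusters). The members' median change was -0.09, against -0.13 for those genes. With those 2 arrays left out 17 rose and 39 fell, and the shares of all genes in that fit are not given here. The split moved with the scaling of the arrays, with 17 higher and 28 lower after median centring, 24 and 22 after quantile normalization and 22 and 21 after cyclic loess.

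Of the 9 that rose 7 were plasma membrane genes. SLC1A5, the exchanger that brings in glutamine, had 11.84, 11.91 and 11.98 in arsenite input, against 11.28, 11.25 and 11.24 in DMSO input. The groups did not overlap, and the change was 0.66 ± 0.11 (adjusted p = 0.0012). SLC3A2, the heavy chain that carries SLC7A5 and SLC7A11 to the cell surface, had 12.03, 12.07 and 12.13 in arsenite input, against 11.63, 11.62 and 11.60 in DMSO input, a change of 0.46 ± 0.09 (adjusted p = 0.0034). The sodium-coupled amino acid transporter SLC38A2 rose by 0.43 ± 0.08 (adjusted p = 0.0037), the taurine transporter SLC6A6 by 0.41 ± 0.12 (adjusted p = 0.031), SLC2A1 by 0.41 ± 0.08 (adjusted p = 0.003), the anion exchanger SLC26A6 by 0.51 ± 0.11 (adjusted p = 0.0061) and the nucleoside transporter SLC29A1 by 0.34 ± 0.10 (adjusted p = 0.043). SLC9A8, a sodium-proton exchanger of the Golgi and endosomes, rose by 0.38 ± 0.08, and SLC12A9, a member of the cation-chloride cotransporter family, by 0.29 ± 0.09.

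Of the 29 plasma membrane carriers of amino acids 4 rose and 3 fell in input. SLC7A5, the large neutral amino acid exchanger and light chain of SLC3A2, had 11.73, 11.70 and 11.75 in arsenite input, against 12.05, 12.08 and 12.07 in DMSO input. Every arsenite array lay below every DMSO array, and SLC7A5 fell by 0.34 ± 0.06 (adjusted p = 0.002). SLC7A1, the importer of arginine and lysine, had 9.89, 10.19 and 10.27 in arsenite input, against 10.67, 10.63 and 10.66 in DMSO input, and fell by 0.53 ± 0.10 (adjusted p = 0.003). The cystine importer SLC7A11 lay between 11.64 and 12.03 in arsenite input, with replicate 1 lowest, against 11.60 to 11.63 in DMSO input. Its change was 0.27 ± 0.11 (adjusted p = 0.11), and 0.40, which was called, without both of these arrays. The zinc exporter SLC30A1, a known target of the metal-responsive factor MTF1, had a change of 0.01 ± 0.13 (adjusted p = 0.97).

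Among the plasma membrane genes that fell, the choline transporter family member SLC44A2 had 8.87, 9.07 and 9.16 in arsenite input, against 9.75, 9.77 and 9.85 in DMSO input, a fall by 0.76 ± 0.11 (adjusted p = 0.00046). The phosphate importer SLC20A2 fell by 0.50 ± 0.11, the zinc, manganese and iron importer SLC39A8 by 0.42 ± 0.12, the magnesium transporter SLC41A1 by 0.40 ± 0.10 and the vitamin C importer SLC23A2 by 0.40 ± 0.11. SLC30A4, which loads zinc into vesicles, fell by 0.55 ± 0.17, and the SLC35 family member SLC35A4 by 0.59 ± 0.12.

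All called SLC25 changes in input were falls. The count was 8 of 31 with 0 higher, 12 and 0 without both of these arrays, and 9 and 0 after each of the 3 scalings. The class median was -0.32, and -0.20 without both of these arrays. The calcium-regulated ATP-magnesium/phosphate carrier SLC25A23 had 8.39, 8.60 and 8.52 in arsenite input, against 9.27, 9.22 and 9.30 in DMSO input, and fell by 0.76 ± 0.09 (adjusted p = 8.4e-05). SLC25A43, whose substrate is not settled, fell by 0.67 ± 0.10, the dicarboxylate carrier SLC25A10 by 0.58 ± 0.15, the citrate carrier SLC25A1 by 0.56 ± 0.14, SLC25A39 by 0.49 ± 0.09 and SLC25A46 by 0.49 ± 0.13. Of the genes with a mean of at least 7, 18.4% fell in this comparison, against 25.8% of the SLC25 genes and 10.9% of the plasma membrane genes. Only 2.35% of those genes rose, so 0 rises among 31 SLC25 genes lies near that share.

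**Figure D1:**
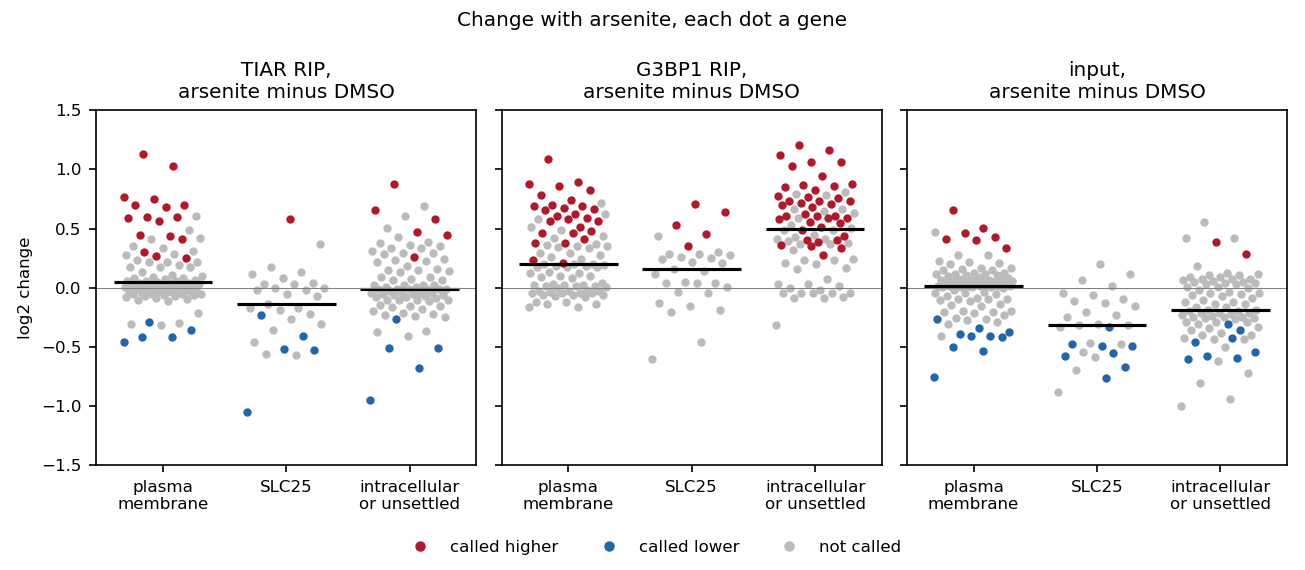
Log2 change with arsenite (arsenite minus DMSO) for each member, in the TIAR RIP, the G3BP1 RIP and input from left to right, by location class, with a line at each class median. Red dots are called higher, blue dots called lower and grey dots not called, and the SLC25 genes have blue but no red dots in input while the G3BP1 RIP has no blue dots.

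The promoters of SLC3A2 and SLC7A1 are shown as a pair picked by their changes in input and by the letters in their windows. The mRNAs of these amino acid transport genes changed in opposite directions in input, and both windows hold letters of the same stress elements. The windows are RefSeq's on GRCh38.p14, 250 bases before to 50 after a listed start site, written 5′ to 3′ on the gene's strand, and 172 of the 208 members have one. SLC3A2 lies at chr11:62881449-62881748 on the plus strand, the first of 3 listed starts, and SLC7A1 at chr13:29595639-29595938 on the minus strand with 1 listed start. Capitals mark matches to the antioxidant response element TGACNNNGC, the first in each window, and to the C/EBP-ATF element TGATGNAAN, the second, which SLC3A2 holds on the opposite strand.
SLC3A2: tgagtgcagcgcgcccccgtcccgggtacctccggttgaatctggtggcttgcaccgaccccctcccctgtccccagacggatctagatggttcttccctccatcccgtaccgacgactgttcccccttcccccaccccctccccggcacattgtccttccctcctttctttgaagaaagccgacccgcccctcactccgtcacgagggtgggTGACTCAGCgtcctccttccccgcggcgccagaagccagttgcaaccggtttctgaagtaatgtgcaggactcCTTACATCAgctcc
SLC7A1: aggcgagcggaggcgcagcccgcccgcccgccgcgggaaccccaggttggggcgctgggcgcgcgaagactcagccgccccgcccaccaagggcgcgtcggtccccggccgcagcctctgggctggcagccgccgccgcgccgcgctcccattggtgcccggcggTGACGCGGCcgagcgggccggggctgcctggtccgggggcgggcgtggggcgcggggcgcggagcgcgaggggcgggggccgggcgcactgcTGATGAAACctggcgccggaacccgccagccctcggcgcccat
The C/EBP-ATF letters, on either strand, were in 3.67% of all 27305 windows and in 8 of the 172 member windows (4.65%). They were in 1 of the 8 windows of members that rose in input, that of SLC3A2. Of the 24 windows of members that fell 1 held them, that of SLC7A1, so the printed windows are these single matches. The antioxidant letters were in 13.6% of all windows and 27 of the member windows (15.7%). They were in 1 of the 8, again SLC3A2, and in 5 of the 24, SLC7A1 among them. A match is a description of letters in a window and not a bound site.

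Against input, the TIAR RIP held more of many solute carrier mRNAs. With arsenite 96 members were higher and 27 lower than input, or 46.2% and 13.0% of the members, where 31.7% of the genes with a mean of at least 7 were higher and 28.4% lower (20.3% and 23.5% of all transcript clusters). The members' median difference was 0.20, against -0.04 for those genes. With DMSO 86 were higher and 39 lower, where 25.6% of the genes were higher and 30.8% lower (16.8% and 23.8% of all transcript clusters), and the medians were 0.17 and -0.06. Leaving out both of those arrays, the counts were 100 higher and 37 lower with arsenite and 100 and 48 with DMSO. For that fit the shares of all genes are not given here. With DMSO 68.8% of the called members were higher, and 79.5% after median centring, which also raised the median of all clusters in this comparison. The 2 conditions use different arrays throughout.

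The members with large differences in the TIAR RIP came from all 3 classes. SLC17A5, the lysosomal exporter of sialic acid, had 9.99, 9.52 and 10.21 in the arsenite TIAR RIP, against 7.41, 7.97 and 7.96 in arsenite input. Every RIP array lay far above every input array, with a difference of 2.13 ± 0.21 (adjusted p = 1.1e-06), and of 1.94 without both of these arrays. The monocarboxylate transporter family member SLC16A9 differed by 2.02 ± 0.14 with arsenite (adjusted p = 3.3e-08) and 2.03 ± 0.14 with DMSO (adjusted p = 1.7e-08). The lysosomal SLC46A3 differed by 2.03 ± 0.29 with arsenite and 1.65 ± 0.29 with DMSO, and SLC35F5 by 2.00 ± 0.26 and 1.49 ± 0.26. The thiamine importer SLC19A2 (1.88 ± 0.25 with arsenite), the sodium bicarbonate cotransporter SLC4A7 (1.88 ± 0.24) and SLC38A9, which reports lysosomal arginine to the growth regulator mTORC1 (1.78 ± 0.26), were higher too. SLC41A1 differed by 1.52 ± 0.10 with arsenite and 1.58 ± 0.10 with DMSO.

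Of the 31 SLC25 genes 9 were higher and 7 lower in the TIAR RIP with arsenite (29.0% and 22.6%), and 10 higher and 11 lower with DMSO (32.3% and 35.5%). These shares lie near those of the genes with a mean of at least 7. SLC25A11 had 10.57, 10.68 and 10.43 in the arsenite TIAR RIP, against 12.07, 12.09 and 12.12 in arsenite input, a difference of -1.53 ± 0.11 (adjusted p = 7.7e-08). SLC25A4, the ADP/ATP exchanger of heart and muscle, had 8.69, 8.56 and 8.24 in the DMSO TIAR RIP, against 10.36, 10.43 and 10.46 in DMSO input, a difference of -1.92 ± 0.17 (adjusted p = 2.4e-07). No RIP array reached the input range in either case. SLC25A1 differed by -1.42 ± 0.14 with arsenite and -1.66 ± 0.14 with DMSO, and SLC25A10 by -1.45 ± 0.15 and -1.67 ± 0.15.

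Other SLC25 members were high in the TIAR RIP. SLC25A23 had 11.09, 11.10 and 11.04 in the DMSO TIAR RIP, against 9.27, 9.22 and 9.30 in DMSO input, a difference of 1.81 ± 0.09 (adjusted p = 1.1e-09). The pyrimidine nucleotide carrier SLC25A36 differed by 1.74 ± 0.22 with arsenite and 1.29 ± 0.22 with DMSO, SLC25A16 by 1.46 ± 0.27 and 1.33 ± 0.27, and SLC25A43 by 1.29 ± 0.10 and 1.13 ± 0.10. Outside the family, the low members included SLC33A2 (-1.22 ± 0.16 with arsenite and -1.82 ± 0.16 with DMSO), the riboflavin importer SLC52A2 (-0.89 ± 0.12 and -1.27 ± 0.12), the zinc transporter SLC39A13 (-0.85 ± 0.10 and -1.26 ± 0.10) and the sugar transporter SLC50A1 (-1.08 ± 0.21 and -1.05 ± 0.21). SLC1A5, bright in all groups, differed by -0.47 ± 0.11 with arsenite and -0.94 ± 0.11 with DMSO.

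**Figure D2:**
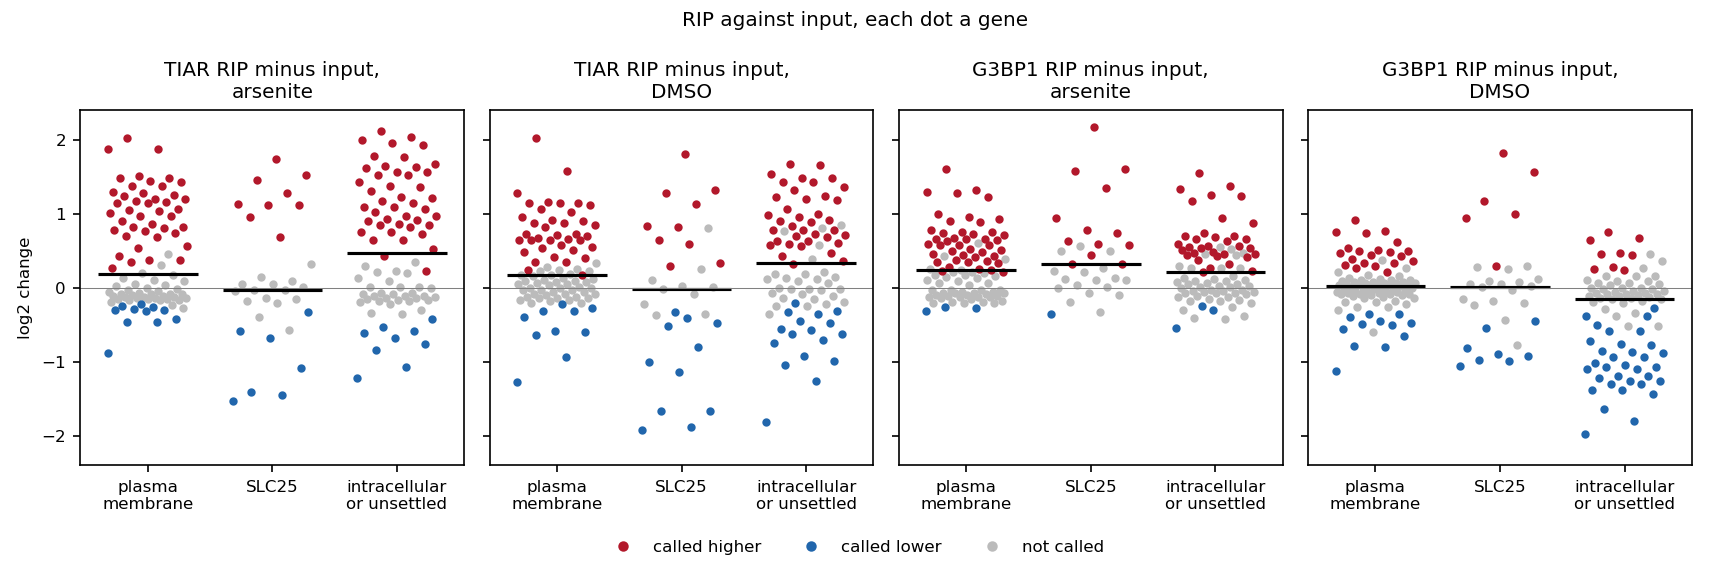
Log2 difference of each RIP from input for each member, for the TIAR RIP with arsenite and DMSO and the G3BP1 RIP with arsenite and DMSO from left to right, by location class, with a line at each class median. Red dots are called higher, blue dots called lower and grey dots not called, and the SLC25 genes spread on both sides of 0 in the TIAR RIP, with medians of -0.03 and -0.01.

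Against input, the G3BP1 RIP with arsenite held 91 members higher and 7 lower, where 45.8% of the genes with a mean of at least 7 were higher and 9.97% lower (29.3% and 15.2% of all transcript clusters). The members' share of 43.8% higher was thus near the background, and so was their median of 0.24 against 0.28. The split depended on scaling, with 69 higher and 21 lower after median centring, 58 and 35 after quantile normalization and 55 and 47 after cyclic loess, and it was 90 and 16 without both of these arrays. With DMSO 36 members were higher and 53 lower, where 30.1% of the genes were higher and 20.2% lower (20.7% and 19.2% of all transcript clusters), and the medians were -0.05 and 0.04. When the 2 outlying arrays were left out, 54 were higher and 59 lower, and after cyclic loess 29 and 69.

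Of the 31 SLC25 genes 13 were higher and 1 lower than input in the arsenite G3BP1 RIP (41.9% and 3.23%). Among the genes with a mean of at least 7 the shares were 45.8% and 9.97%. With DMSO 6 SLC25 genes were higher and 8 lower (19.4% and 25.8%), where 30.1% and 20.2% of those genes were. The class was thus not called higher more often than genes at large, though 3 of the 4 largest differences with arsenite were of SLC25 genes. SLC25A20, the carnitine-acylcarnitine carrier that brings fatty acids in for oxidation, had 10.17, 10.28 and 10.21 in the arsenite G3BP1 RIP, against 8.05, 8.06 and 8.06 in arsenite input. In the DMSO G3BP1 RIP it had 10.40, 10.25 and 9.61, against 8.32, 8.27 and 8.19 in DMSO input. All 6 RIP arrays lay above all 6 input arrays, with differences of 2.17 ± 0.15 (adjusted p = 3.3e-08) and 1.83 ± 0.15 (adjusted p = 1.9e-07). In the TIAR RIP its differences from input were 0.01 ± 0.15 with arsenite (adjusted p = 0.96) and -0.37 ± 0.15 with DMSO (adjusted p = 0.066).

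SLC25A29, a mitochondrial carrier of basic amino acids, was 1.61 ± 0.15 higher in the G3BP1 RIP than in input with arsenite and 0.99 ± 0.15 with DMSO. The ATP-magnesium/phosphate carrier SLC25A25 differed by 1.35 ± 0.15 and 1.17 ± 0.15. The aspartate-glutamate carriers of the malate-aspartate shuttle were also high, SLC25A12 by 1.57 ± 0.23 in either condition and SLC25A13 by 0.58 ± 0.17 with arsenite and 0.94 ± 0.17 with DMSO. Of these, SLC25A12 was higher than input in the TIAR RIP as well (1.12 ± 0.23 with arsenite), whereas SLC25A29 was lower there (-0.69 ± 0.15).

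Of the plasma membrane genes 44 were higher and 3 lower than input in the arsenite G3BP1 RIP, and their share of 47.8% higher was near the 45.8% of the genes with a mean of at least 7. SLC12A2, the sodium-potassium-chloride cotransporter, had 10.82, 10.73 and 10.81 there, against 8.66, 9.47 and 9.42 in arsenite input, a difference of 1.61 ± 0.22 (adjusted p = 2.9e-05), and of 1.35 without both of these arrays. SLC23A2 was higher by 1.32 ± 0.11, SLC7A1 by 1.29 ± 0.10 and the neuronal glutamate transporter SLC1A1 by 1.28 ± 0.18. Among the other class the difference was 1.38 ± 0.14 for SLC15A4, a lysosomal transporter of histidine and peptides, and 1.26 ± 0.09 for SLC66A1, the lysosomal exporter of cationic amino acids. The 7 lower members were SLC30A7 (-0.55 ± 0.20), SLC25A46 (-0.36 ± 0.13) and 5 others between -0.32 and -0.24.

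With DMSO 33 of the 84 genes of the other class were lower in the G3BP1 RIP than in input, or 39.3%, against 20.2% of the genes with a mean of at least 7. SLC35A5 had 8.07, 8.22 and 7.23 in the DMSO G3BP1 RIP, against 9.79, 9.85 and 9.84 in DMSO input, a difference of -1.98 ± 0.26 (adjusted p = 1.8e-05). SLC35B1, which brings ATP into the endoplasmic reticulum, had 10.87, 10.83 and 9.62, against 12.17, 12.01 and 12.07 in DMSO input, a difference of -1.64 ± 0.23 (adjusted p = 4.2e-05). Replicate 3 was the lowest RIP array for both, and without both of these arrays the differences were -1.68 and -1.23. SLC71A1 differed by -1.80 ± 0.18, SLC30A7, which loads zinc into the Golgi, by -1.30 ± 0.20, and the GDP-fucose transporter SLC35C1 by -1.19 ± 0.14.

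The direct comparison of the 2 RIPs shares its arrays with the comparisons against input, so its values stand beside theirs and add no independent evidence. With arsenite 63 members were higher in the TIAR RIP than in the G3BP1 RIP and 54 lower, where 18.1% of the genes with a mean of at least 7 were higher and 42.1% lower (15.6% and 28.7% of all transcript clusters). After the 3 scalings 70.4% to 73.0% of the called members were higher, against 53.8% on the deposited scale. The share of all genes under these scalings is not given here, and median centring also raised the median of all clusters in this comparison. That rise is therefore not read as a result about the members. With DMSO 92 were higher and 41 lower, where 24.3% of the genes were higher and 38.6% lower (19.3% and 27.5% of all transcript clusters). SLC35A5 had 11.44, 11.23 and 11.08 in the DMSO TIAR RIP, against 8.07, 8.22 and 7.23 in the DMSO G3BP1 RIP, a difference of 3.41 ± 0.26 (adjusted p = 2.6e-08), and of 3.10 without both of these arrays. At the other end SLC25A1 had 9.91, 10.03 and 9.73 in the arsenite TIAR RIP, against 12.33, 12.27 and 12.14 in the arsenite G3BP1 RIP, a difference of -2.36 ± 0.14 (adjusted p = 4.5e-09). Of the 31 SLC25 genes 6 were higher and 13 lower in the TIAR RIP with arsenite (19.4% and 41.9%), near the shares of the genes above. With DMSO 10 were higher and 13 lower (32.3% and 41.9%), beside 24.3% and 38.6% of the genes.

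**Figure D3:**
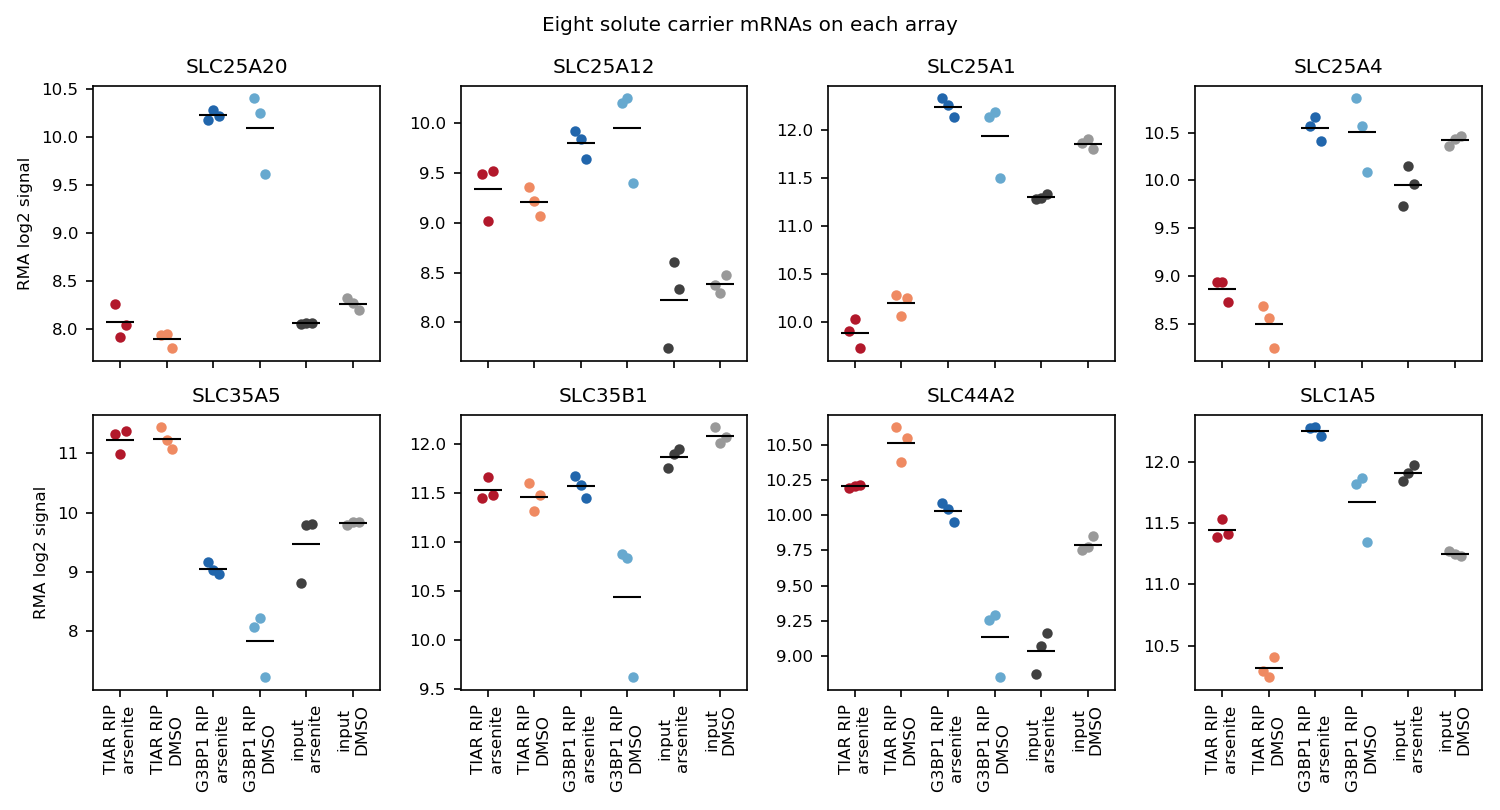
RMA log2 signal of 8 members on each of the 18 arrays, with the TIAR RIP, the G3BP1 RIP and input from left to right in each panel and arsenite left of DMSO. Dots are arrays and lines are means of 3, and SLC25A20 is higher in all 6 G3BP1 arrays than in the other 12, between 9.61 and 10.40.

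Within the TIAR RIP, arsenite left most members without a called change. Of the 208 members 24 rose and 15 fell, where 8.38% of the genes with a mean of at least 7 rose and 9.59% fell (6.15% and 5.71% of all transcript clusters). The members' medians were 0.02, and 0.05 for the plasma membrane, -0.14 for SLC25 and -0.01 for the others, against -0.02 for those genes. By class 17 plasma membrane genes rose and 5 fell, 1 SLC25 gene rose and 5 fell, and 6 of the others rose and 5 fell. Neither outlying array is a TIAR array, and in a fit without them 46 rose and 27 fell, with 26 and 7 in the plasma membrane and 2 and 11 in SLC25. Shares of all genes called in that fit are not given here, so these counts are not set against them.

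Of the 6 members of the SLC1 family, the transporters of glutamate and neutral amino acids, 3 rose and 0 fell. Among the genes with a mean of at least 7, 8.38% rose and 9.59% fell. SLC1A5 had 11.38, 11.53 and 11.41 in the arsenite TIAR RIP, against 10.29, 10.24 and 10.41 in the DMSO TIAR RIP. The groups did not overlap, and the rise was 1.13 ± 0.11 (adjusted p = 1.3e-05), beside one of 0.66 in input. SLC1A3, the glial glutamate transporter that clears synapses, had 9.76, 9.43 and 9.79 in the arsenite TIAR RIP, against 8.74, 8.68 and 8.48 in the DMSO TIAR RIP, and rose by 1.03 ± 0.17 (adjusted p = 0.0011). Its change in input was 0.47 ± 0.17 (adjusted p = 0.091), and 0.56, which was called, without both of these arrays. The serine and alanine transporter SLC1A4 rose by 0.76 ± 0.16 (adjusted p = 0.0045).

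Other rises in the TIAR RIP were of the zinc importer SLC39A6 (0.75 ± 0.15), SLC38A9 (0.88 ± 0.26), SLC26A6 (0.68 ± 0.11), SLC29A1 (0.60 ± 0.10), SLC38A2 (0.59 ± 0.08) and SLC6A6 (0.59 ± 0.12). The 1 SLC25 gene that rose was SLC25A13, with 10.58, 10.41 and 10.38 in the arsenite TIAR RIP, against 10.00, 10.00 and 9.63 in the DMSO TIAR RIP (0.58 ± 0.17, adjusted p = 0.033). SLC25A23 had 10.02, 10.13 and 9.94 in the arsenite TIAR RIP, against 11.09, 11.10 and 11.04 in the DMSO TIAR RIP, and fell by 1.05 ± 0.09 (adjusted p = 5.7e-06), beside a fall of 0.76 in input. SLC35D4 fell by 0.95 ± 0.27, SLC9D1 by 0.68 ± 0.14, the iron importer of mitochondria SLC25A37 by 0.53 ± 0.13, SLC25A43 by 0.52 ± 0.10, SLC41A1 by 0.46 ± 0.10 and SLC7A1 by 0.42 ± 0.10.

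Set against the change in input, no member's change in the TIAR RIP was called. The test of the difference found 0 of 208 in limma, with 34 at an unadjusted p under 0.05, where 0.782% of the genes with a mean of at least 7 were called higher and 0.0391% lower (0.604% and 0.05% of all transcript clusters). For SLC1A5 the difference between the changes was 0.47 ± 0.16 (adjusted p = 0.2) and for SLC1A3 it was 0.56 ± 0.24 (adjusted p = 0.35). After removal of the 2 outlying arrays 9 members were called, among them SLC1A5 at 0.44, and with array weights 15.

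In the G3BP1 RIP, arsenite raised 74 members and lowered 0, where 16.2% of the genes with a mean of at least 7 rose and 5.55% fell (10.4% and 4.08% of all transcript clusters). The members' share that rose was 35.6%, and their median was 0.33 against 0.05 for those genes. By class 28 of 92 plasma membrane genes, 5 of 31 SLC25 genes and 41 of the 84 others rose. The median deviation of the other class from its 18-array mean was -0.67 on replicate 3 of the DMSO G3BP1 RIP, against -0.19 and -0.16 on its other arrays, and the counts were therefore also taken without that array. With those 2 arrays left out 78 rose and 6 fell, where 16.9% of the genes rose and 20.3% fell. Then all 6 falls were among the 31 SLC25 genes, a share of that class near the 20.3% of the genes. They included SLC25A24, an ATP-magnesium/phosphate carrier, at -0.92 and SLC25A13 at -0.58. In that fit 32 plasma membrane genes and 41 of the others rose, and 72 of the 74 kept their call and direction. With only the 2 G3BP1 groups in the fit 23 rose and 0 fell.

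Large rises were seen in the other class and in the plasma membrane class, and their order depended on the outlying arrays, since SLC35A5 had the largest rise over all 18 arrays and SLC29A1 (1.01) without both of them. SLC35C1 had 10.52, 10.47 and 10.31 in the arsenite G3BP1 RIP, against 9.53, 9.66 and 8.92 in the DMSO G3BP1 RIP. The groups did not overlap, and the rise was 1.06 ± 0.14 (adjusted p = 0.00013), and 0.84 without both of these arrays. SLC35A5 had 9.16, 9.03 and 8.96 in the arsenite G3BP1 RIP, against 8.07, 8.22 and 7.23 in the DMSO G3BP1 RIP, and rose by 1.21 ± 0.26 (adjusted p = 0.005), and by 0.90 without both of these arrays. SLC35B1 rose by 1.12 ± 0.23 and SLC30A7 by 1.17 ± 0.20, and by 0.71 and 0.89 without both of these arrays. SLC35E1 rose by 0.87 (adjusted p = 1.1e-06).

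Plasma membrane genes that rose in the G3BP1 RIP included SLC29A1 (1.08 ± 0.10), SLC44A2 (0.89 ± 0.11), SLC44A1, a choline transporter (0.87 ± 0.18), SLC16A9 (0.86 ± 0.14), SLC26A6 (0.83 ± 0.11) and SLC5A3, the myo-inositol importer (0.67 ± 0.13). SLC7A5 had 12.47, 12.40 and 12.49 in the arsenite G3BP1 RIP, against 11.65, 11.76 and 11.72 in the DMSO G3BP1 RIP, and rose by 0.74 ± 0.06 (adjusted p = 4.2e-06). Replicate 3 of the DMSO group lies within its group here, and the rise without both of these arrays was 0.75. SLC1A5 rose by 0.58 ± 0.11 and SLC6A6 by 0.61 ± 0.12, whereas SLC38A2 had a change of 0.10 ± 0.08 (adjusted p = 0.57) and SLC3A2 one of 0.20 ± 0.09 (adjusted p = 0.18). The 5 SLC25 genes were SLC25A44, a carrier of branched-chain amino acids (0.71 ± 0.18), SLC25A39 (0.64 ± 0.09), SLC25A23 (0.53 ± 0.09), SLC25A37 (0.45 ± 0.13) and SLC25A43 (0.35 ± 0.10).

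The change in the G3BP1 RIP exceeded that in input for 80 members and fell short of it for 0, where 23.2% of the genes with a mean of at least 7 were called higher and 2.62% lower (14.3% and 2.65% of all transcript clusters). This test shares its G3BP1 arrays with the comparison above. By class the counts were 25 in the plasma membrane, 11 in SLC25 and 44 in the others (27.2%, 35.5% and 52.4%). The class medians were 0.16, 0.51 and 0.66, against 0.21 for the genes with a mean of at least 7. The plasma membrane share was thus near that of those genes, and its median was below theirs. Leaving out both of those arrays, 78 exceeded the input change and 5 fell short, with 26, 10 and 42 by class. SLC44A2 rose in the G3BP1 RIP and fell in input, a difference of 1.65 ± 0.16 (adjusted p = 1.5e-05). SLC7A5 did the same, with a difference of 1.08 ± 0.09 (adjusted p = 5.7e-06), as did SLC25A23 (1.29 ± 0.13), SLC7A1 (0.91 ± 0.15), SLC20A2 (1.01 ± 0.16) and SLC25A39 (1.13 ± 0.13). These 6 differences were 1.43, 1.09, 1.14, 0.68, 0.80 and 1.05 without both of these arrays, and each was called.

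The plasma membrane and SLC25 classes can be read against each other array by array, since both lie on the same array. For each array the median over a class was taken of each gene's deviation from its mean over 18 arrays, and the SLC25 median was subtracted from the plasma membrane median. This difference was 0.18 ± 0.06 in the arsenite TIAR RIP and 0.07 ± 0.01 in the DMSO TIAR RIP (SD, n = 3). It was -0.06 ± 0.07 in the arsenite G3BP1 RIP and -0.16 ± 0.22 in the DMSO G3BP1 RIP. In input it was 0.07 ± 0.12 with arsenite and -0.16 ± 0.04 with DMSO. The arsenite TIAR arrays, between 0.11 and 0.23, lay above the DMSO TIAR arrays, between 0.05 and 0.08. The arsenite input arrays, between -0.02 and 0.22, lay above the DMSO input arrays, between -0.20 and -0.13. The arsenite input array at 0.22 is replicate 1, which stands apart, and the others were at 0.03 and -0.02. In the G3BP1 RIP the DMSO arrays were at -0.27, -0.30 and 0.09, so that they lay on both sides of the arsenite arrays, and the array at 0.09 is replicate 3, which stands apart.

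**Figure D4:**
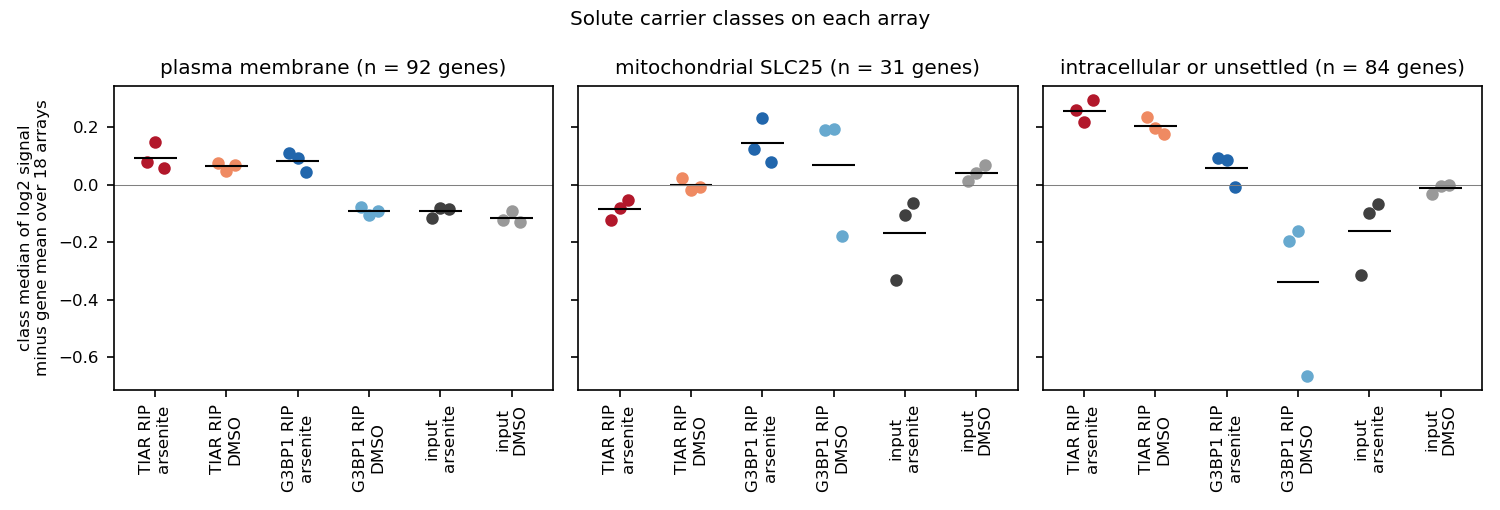
Median deviation from the 18-array mean on each array, in log2 units, by location class, with the TIAR RIP, the G3BP1 RIP and input from left to right and arsenite left of DMSO. Dots are arrays, and the SLC25 class of input lies between -0.33 and -0.06 with arsenite and between 0.01 and 0.07 with DMSO. The value of -0.33 is that of replicate 1 of arsenite input, which stands apart.

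In terms of the fitted changes, the plasma membrane median minus the SLC25 median was 0.33 for arsenite in input, 0.18 for arsenite in the TIAR RIP and 0.04 for arsenite in the G3BP1 RIP. For RIP against input it was 0.21 and 0.18 in the TIAR RIP and -0.08 and 0.01 in the G3BP1 RIP, with arsenite given before DMSO. The classes also differ in signal, with 40 of the 92 plasma membrane genes under a mean of 8. Whether signal level plays a part in these values was not tested. Among members with a mean of at least 8 the TIAR RIP medians were 0.81 for 52 plasma membrane genes and 0.01 for 23 SLC25 genes with arsenite, and 0.51 and -0.22 with DMSO. The medians of all 7606 genes at that threshold were 0.06 and -0.06. There 67.3% of the plasma membrane genes and 34.8% of the SLC25 genes were called higher than input in the TIAR RIP with arsenite, beside 38.3% of all genes. With arsenite in input 8 of the 23 SLC25 genes fell and 0 rose, or 34.8% lower, and 7 of the 52 plasma membrane genes fell and 7 rose, or 13.5% each, beside 23.2% of all genes lower and 2.92% higher.

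The set labelled carriers of acetyl-CoA and sugars in the secretory path holds 25 members, with the SLC35, SLC33 and SLC37 families. The label is a broad one, since the SLC35 family also holds SLC35B1, which brings in ATP. The set had its called changes with arsenite mainly in the G3BP1 RIP. With DMSO 12 of the 25 were lower than input and 0 higher, where 20.2% of the genes with a mean of at least 7 were lower, with a median of -0.38, and from 12 to 16 were lower under the 3 scalings and without both of these arrays, with 1 higher in the last. With arsenite 15 rose and 0 fell in this RIP, where 16.2% of the genes rose, with a median of 0.60, and 16 rose, with a median of 0.33, without both of these arrays. In the TIAR RIP 1 rose and 2 fell with arsenite, at a median of 0.01, where 8.38% of the genes rose and 9.59% fell. Against input 15 were higher and 1 lower in the TIAR RIP with arsenite, where 31.7% of the genes were higher and 28.4% lower. The 20 SLC35 genes had a median of -0.90 against input in the DMSO G3BP1 RIP, with 12 lower and 0 higher, and of -0.69 without both of these arrays, with 12 and 0. SLC33A1, the acetyl-CoA importer of the endoplasmic reticulum, was not called in either, with a change of 0.67 ± 0.22 in the G3BP1 RIP (adjusted p = 0.052) and of 0.55 ± 0.22 in input (adjusted p = 0.11).

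The 8 SLC30 zinc exporters had a median of 1.43 in the TIAR RIP against input with arsenite, with 6 higher and 0 lower, and of 0.89 with DMSO, with 5 and 0, where 31.7% and 25.6% of the genes with a mean of at least 7 were higher. SLC30A4 led them with arsenite (1.68 ± 0.17), with SLC30A6 (1.65) and SLC30A9 (1.64 ± 0.35) next to it and SLC30A5, which supplies zinc to secreted enzymes (1.56 ± 0.26). The 8 SLC38 amino acid transporters had 7 higher and 1 lower in the same comparison, and 5 rose and 0 fell with arsenite in the TIAR RIP, where 8.38% of the genes rose. Of 29 amino acid carriers of the plasma membrane 8 were called higher and 2 lower with arsenite in the TIAR RIP, 9 higher and 0 lower in the G3BP1 RIP, and 4 higher and 3 lower in input. The median of these 29 in the TIAR RIP was 0.04, and the shares of genes called higher were 8.38%, 16.2% and 2.35% in the same order. Of 10 metal carriers of the plasma membrane 3 rose and 1 fell in the TIAR RIP, where 8.38% of the genes rose and 9.59% fell. The copper importer SLC31A1 (0.30 ± 0.09) and the zinc and iron importer SLC39A14 (0.44 ± 0.11) were among the rises.

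**Figure D5:**
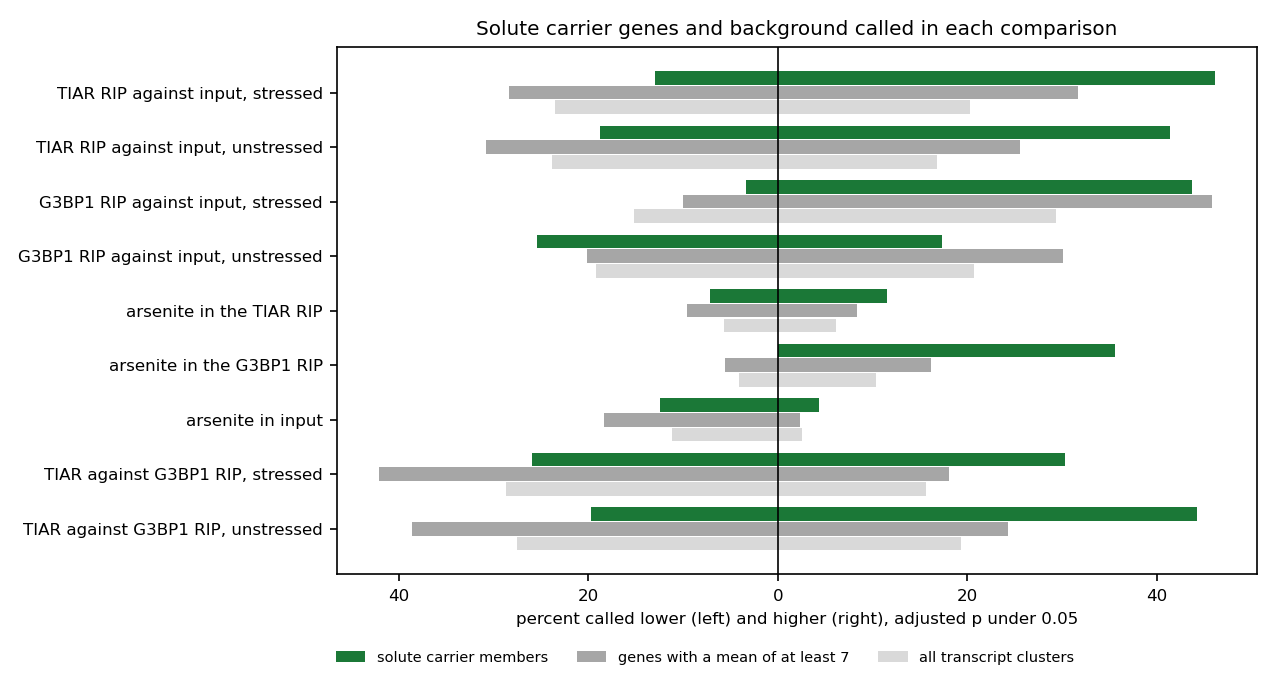
Percent of solute carrier members (green), genes with a mean of at least 7 (dark grey) and all transcript clusters (light grey) called lower, to the left of 0, and higher, to the right, in 9 comparisons. In the G3BP1 RIP with arsenite 35.6% of the members were higher and 0 lower, beside 16.2% and 5.55% of the genes with a mean of at least 7.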

How the data were processed

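RNA from 18 samples was measured on Affymetrix exon arrays. Per the submitters' processing notes the deposited log2 values were made by the authors with RMA in Affymetrix Expression Console. Not given in the sources used here are the version, the probe set level, the genome build and whether the normalization took in all arrays at once. The files hold no detection calls, and the number of arrays limits the precision.

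Names came from the platform table: 14432 transcript clusters had a single symbol, 2408 had several and 5171 none. The 69 with several symbols, one of them a solute carrier, were not used, and 3 members had more than 1 cluster. A model of 6 group means was fitted to all 22011 clusters with limma 3.58.1 in R 4.3.3, with eBayes and no filter, and tested on simulated data. Adjusted p-values are Benjamini-Hochberg over all clusters in each of 11 comparisons, and a call is an adjusted p under 0.05. Classes by place and substrate were assigned from textbook knowledge. The members, classes and lists were chosen with earlier results of these data known.

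Genes named were those of a list of 40 carriers by role, of which 32 are members, and up to 4 called members per class, direction and comparison with the largest change and no overlap between groups. Up to 4 called members per direction were named for the changes beyond input, with the members next to the threshold. SLC30A6 and SLC35E1 were named after their values were seen. Alternatives were 3 further scalings, array weights, other filters and thresholds, a trended and robust prior, the compared groups alone, a replicate block, and arrays left out.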

Additional observations from a re-analysis of the deposited data

Results flagged for a closer look

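The change with arsenite in the G3BP1 RIP differed from that in input for 80 members, by the test of the difference itself. Each difference, G3BP1 RIP minus input, was above 0. Of the members 38.5% were thus called higher and 0 lower. Among the genes with a mean of at least 7, 23.2% were called higher and 2.62% lower (14.3% and 2.65% of all transcript clusters). Among the plasma membrane carriers of the list by role the difference was 1.65 for SLC44A2, 1.18 for SLC44A1, 1.08 for SLC7A5, 1.01 for SLC20A2, 0.99 for SLC12A2, 0.91 for SLC7A1, 0.75 for SLC29A1, 0.74 for SLC5A3, 0.69 for SLC38A1 and 0.51 for SLC19A1. Among carriers of other membranes it was 1.65 for SLC30A9, 1.64 for SLC71A1, 1.57 for SLC35A5, 1.34 for SLC35B1, 1.22 for SLC30A5 and 0.63 for SLC35A2. Among SLC25 carriers it was 0.86 for the citrate carrier SLC25A1, 0.68 for SLC25A37 and 0.53 for SLC25A11. These values use replicate 3 of the DMSO G3BP1 RIP and replicate 1 of arsenite input, and 71 of the 80 kept their call and direction without those arrays.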

How the results depend on the processing

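Of the counts of called members and the class differences, 615 values under alternatives stayed close to the reported ones and 67 moved. With array weights 76 members were called for arsenite in the TIAR RIP, 64 in input and 15 for the TIAR change beyond input, and the plasma membrane minus SLC25 median was 0.15 for TIAR against input with DMSO, 0.23 for arsenite in input and -0.082 for the G3BP1 change beyond input. Cyclic loess gave 59 for arsenite in the TIAR RIP, 6 for the TIAR change beyond input, and medians of 0.31 for TIAR against G3BP1 with arsenite and -0.18 for the G3BP1 change beyond input. The compared groups alone gave 23 for arsenite in the G3BP1 RIP, 18 in input and 2 for the TIAR change beyond input, as did quantile normalization for the last. Without both arrays that stand apart 73 were called for arsenite in the TIAR RIP, 56 in input and 9 for the TIAR change beyond input, and the medians were 0.22 for arsenite in input, -0.024 and -0.11 for the TIAR and G3BP1 changes beyond input. The median over clusters of a gene gave 0.32 for TIAR against G3BP1 with arsenite. Without the lowest 50% of clusters they were 0.77 and 0.64 for TIAR against input with arsenite and DMSO, 0.11 and 0.20 for G3BP1 against input, 0.36 and 0.47 for arsenite in the TIAR RIP and input, 0.53 and 0.51 for TIAR against G3BP1, and 0.014 and -0.18 for the TIAR and G3BP1 changes beyond input. At a mean of at least 8 these were 0.80, 0.73, 0.13, 0.20, 0.38, 0.45, 0.59, 0.53, 0.018 and -0.16 in the same order. At a mean of at least 6 they were 0.062 and 0.13 for TIAR against input, -0.18 for G3BP1 against input with arsenite and 0.13 for arsenite in the TIAR RIP.

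With 1 array left out the called members ranged over 112 to 141 and 114 to 140 for TIAR against input with arsenite and DMSO, 74 to 114 and 76 to 96 for G3BP1 against input, 23 to 56, 52 to 87 and 20 to 56 for arsenite in the TIAR RIP, the G3BP1 RIP and input, 104 to 127 and 122 to 134 for TIAR against G3BP1, and 0 to 8 and 59 to 94 for the TIAR and G3BP1 changes beyond input. The class differences ranged over 0.15 to 0.26, 0.16 to 0.25, -0.085 to -0.045, -0.0038 to 0.084, 0.12 to 0.27, -0.032 to 0.13, 0.22 to 0.43, 0.23 to 0.32, 0.18 to 0.31, -0.19 to -0.024 and -0.47 to -0.13 in that order. Of single genes 7 values turned round: SLC20A1 was at 0.28 for G3BP1 against input with DMSO under array weights, SLC44A1 at -0.29 under cyclic loess and -0.37 under quantile normalization and SLC33A1 at -0.38 under quantile normalization for G3BP1 against input with arsenite, SLC7A1 at 0.14 and 0.21 for TIAR against G3BP1 with arsenite under cyclic loess and median centring, and SLC19A1 at 0.094 for TIAR against G3BP1 with DMSO under quantile normalization. The causes were not tested. Median centring shifted the median of all clusters to -0.14 against 0.03 for G3BP1 against input with arsenite, to 0.12 against -0.05 for TIAR against input with DMSO, to 0.17 and 0.14 against -0.05 for TIAR against G3BP1, and to -0.11 against 0.05 and -0.05 against 0.06 for the G3BP1 and TIAR changes beyond input.

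With the replicate number as a block, 29 members were called for arsenite in the TIAR RIP, 70 in the G3BP1 RIP and 31 in input, and 75 for the G3BP1 change beyond input. The correlations of same-numbered samples ran from -0.405 to 0.416, and in no pair of groups were all 3 over 0.1. The main model therefore did not treat the number as a pairing, but with 3 arrays a group this check cannot exclude one. Of 342 called results of named genes the block left 323 called, and the compared groups alone, which kept the fewest, left 289. Quantile normalization reversed 1 of the 342. The precision rests on 3 arrays a group, and the files give no measure of signal over background.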

Other observations

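Of 18 ABC transporters with a mean of at least 7, pumps driven by ATP that share many membranes with the solute carriers, 15 were higher and 0 lower in the G3BP1 RIP than in input with arsenite, at a median of 0.67. In that comparison 45.8% of the genes with a mean of at least 7 were higher and 9.97% lower. The cholesterol exporter ABCA1 was higher by 1.53 ± 0.11 and the nucleotide exporter ABCC5 by 1.56 ± 0.14. In the direct comparison 2 were higher and 11 lower in the TIAR RIP than in the G3BP1 RIP with arsenite, where 18.1% of the genes with a mean of at least 7 were higher and 42.1% lower. ABCD3, a peroxisomal transporter of fatty acids, was higher in the TIAR RIP than in input by 2.50 ± 0.27.

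Of 14 genes of mitochondrial protein import, which also carries SLC25 proteins to the inner membrane, 1 was higher and 12 lower in the TIAR RIP than in input with arsenite, and 1 and 11 with DMSO, where 28.4% and 30.8% of the genes with a mean of at least 7 were lower. TIMM10, a chaperone of carriers in the intermembrane space, differed by -2.71 ± 0.14 and TIMM50, a receptor of the inner membrane, by -1.12 ± 0.07 with arsenite. Of 13 partners of solute carriers and ion pumps 2 rose and 3 fell with arsenite in input, where 2.35% of the genes with a mean of at least 7 rose and 18.4% fell. Among the falls was WNK1, the kinase that regulates cation-chloride cotransporters, which fell by 1.10 ± 0.09.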
